A study of Mus musculus with 2 samples.

Results

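Mmp2, Mmp3, Mmp9, Mmp12, Mmp13, Mmp14, Timp1, Timp2, Timp3 and Plau, genes of the enzymes that cut the extracellular matrix and of the inhibitors that hold those enzymes back, were followed in single cells of mouse ovarian tumors. The 10 genes were taken by name from the 32285 features of the files, and each symbol matched 1 feature. The tumors grew under the skin after injection of SO cells, a syngeneic ovarian cancer line made from mouse ovarian surface epithelial stem cells that lack p53 and carry activated HRAS and MYC. The hosts were female C57BL/6 mice of 6 to 8 weeks, either wild type (WT) or tight skin (TSK). TSK mice, kept on the same C57BL/6 background, carry a duplication inside Fbn1, the gene of the microfibril protein fibrillin-1, and develop a thick, fibrotic skin. Tumors of 4 mice were pooled into each of the 2 libraries, 1 WT and 1 TSK. With 1 library per genotype there are no replicates, so no difference between WT and TSK was tested, and every interval given is a 95% interval of counting error. Counts of 3′ ends do not show the Fbn1 duplication, so they give no check of the genotype labels.

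Matrix metalloproteases (MMPs) are zinc enzymes, made as inactive proenzymes, that cut collagens, gelatins, elastin and other matrix proteins. Tissue inhibitors of metalloproteases (TIMPs) block the active site of these enzymes. Timp2 also has a role in activation, since a complex of the membrane enzyme Mmp14 with Timp2 at the cell surface presents pro-Mmp2 for cutting. Plau encodes urokinase, the serine protease that turns plasminogen into plasmin, which in turn can activate several pro-MMPs. In tumors, much of the protease RNA is known to come from host fibroblasts, macrophages and neutrophils rather than from the cancer cells.

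After removal of low-quality cells, 1442 WT and 2961 TSK cells remained, with a median of 7658.5 and 7302 UMIs (unique molecular identifiers, each standing for 1 captured RNA molecule). Cells were given a lineage from UMIs of marker genes and are called X-like. Fibroblast-like cells numbered 160 in WT and 241 in TSK, cancer-like cells 89 and 1067, macrophage-like cells 325 and 451, endothelial-like cells 70 and 63, mural-like cells (the smooth muscle and pericyte layer of vessels) 16 and 46, neutrophil-like cells 40 and 185, and T or NK-like cells 475 and 304. In each of these 7 lineages between 2 and 5 of the top 10 genes by fold were its own markers and none was a marker of another lineage. The lineages were named from these same markers, so this was largely set by the rule and is no check of the names. Mmp3 was itself among the top 10 genes of the fibroblast-like cells, although it was not used to define them. Mural-like cells also carried fibroblast markers, at a summed level of 7578 CPM (UMIs of a gene per 1000000 UMIs of the lineage) in WT and 5770 CPM in TSK, and with 16 WT cells their values are the least certain. The libraries differed in makeup, and cancer-like cells held 16.3% of the UMIs of all genes in WT and 70.2% in TSK.

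Mmp3, Mmp12 and Mmp13 are neighbours on chromosome 9. In GRCm38 (the build named mm10 in the submitters' processing notes, with GENCODE M21 gene models) a cluster of 10 metalloprotease genes spans 427 kb, chr9:7272514-7699585. Mmp13 (chr9:7272514-7283331), Mmp12 (chr9:7344381-7369499) and Mmp3 (chr9:7445822-7455975) lie within 183 kb of it, all on the plus strand. The other members lie elsewhere, Mmp2 at chr8:92827291-92853420, Mmp9 at chr2:164940780-164955850, Mmp14 at chr14:54431612-54445364 and Plau at chr14:20836660-20843385. Timp1 (chrX:20870166-20874735) sits inside an intron of Syn1 and Timp3 (chr10:86300372-86349506) inside Syn3, each on the strand opposite to its host gene. Timp2 is at chr11:118301069-118355740 on the minus strand, and Cep295nl, which lies within it on the same strand, had 79 UMIs in the kept cells against 15463 of Timp2. Mmp12 overlaps an exon of Mmp1b, which runs on the opposite strand and had 0 UMIs in the kept cells.

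The sequence just before the start of transcription is shown for the 3 neighbouring proteases and for Timp1, the inhibitor that differed between the libraries in the most lineages. Each line gives 120 bases of the plus strand, 5′ to 3′, from the RefSeq promoter table (GRCm38.p6), ending at the base before the annotated start. Capitals mark TGANTCA, the letters bound by AP-1 (the Fos and Jun factors), and TATAAA, the TATA box.
Mmp13: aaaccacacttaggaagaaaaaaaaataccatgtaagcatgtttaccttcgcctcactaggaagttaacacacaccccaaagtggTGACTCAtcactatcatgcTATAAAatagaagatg
Mmp12: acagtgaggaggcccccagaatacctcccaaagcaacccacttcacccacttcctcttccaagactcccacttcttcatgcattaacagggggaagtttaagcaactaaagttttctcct
Mmp3: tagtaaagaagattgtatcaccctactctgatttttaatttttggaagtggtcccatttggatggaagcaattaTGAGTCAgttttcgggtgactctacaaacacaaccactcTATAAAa
Timp1: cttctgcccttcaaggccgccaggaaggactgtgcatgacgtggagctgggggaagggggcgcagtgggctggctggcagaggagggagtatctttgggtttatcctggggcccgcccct
These stretches are chr9:7272394-7272513 for Mmp13, chr9:7344261-7344380 for Mmp12, chr9:7445702-7445821 for Mmp3 and chrX:20870046-20870165 for Timp1. Mmp13 and Mmp3 both hold TGANTCA followed by TATAAA, without overlap, and the stretches of Mmp12 and Timp1 hold neither. The table had promoters for 7 of the 10 genes, without Mmp2, Mmp9 and Plau. Among those 7, TGANTCA occurred within 250 bases before a start in 3 (Mmp3, Mmp13 and another, downstream Mmp12 start) and TATAAA on either strand in 2. Of all 32851 promoters in the table, 6.75% held TGANTCA and 12.4% held TATAAA within the same 250 bases. A match describes these letters only, and their use in these cells was not measured.

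The 10 genes fell into groups by the cells that held their UMIs, counted over both libraries. Fibroblast-like cells held the largest share for 4 genes: 93.5% of the Mmp3 UMIs (interval 92.9 to 94.1), 60.8% for Timp3, 50.2% for Mmp2 and 41.6% for Mmp14. Macrophage-like cells led 2, with 80.8% of the Mmp12 UMIs and 70.2% of the Mmp13 UMIs. Cancer-like cells led 3, with 74.0% of Plau, 48.6% of Timp1 and 45.2% of Timp2. Neutrophil-like cells led Mmp9, with 132 of its 551 UMIs (interval 20.4% to 27.7%). Taken library by library, the same lineage led in WT and in TSK for Mmp3, Timp3, Mmp12, Plau and Timp1, although for Timp1 in WT cancer-like cells were only just ahead of fibroblast-like cells (2348 and 2276 UMIs). The leader changed for the other members. Mmp2 had 2107 fibroblast-like and 349 cancer-like UMIs in WT, against 1633 and 2413 in TSK. Mmp14 had 2018 fibroblast-like and 137 cancer-like UMIs in WT, against 1202 and 1233 in TSK, and Timp2 had 2444 and 929 in WT, against 2049 and 6053 in TSK. For these 3 genes fibroblast-like cells thus held the largest share in WT and cancer-like cells in TSK. Mmp13 was led in TSK by mural-like cells, with 66 UMIs against 51 in macrophage-like cells. Mmp9 was led in WT by fibroblast-like cells, with 66 UMIs against 26 in mural-like and 21 in neutrophil-like cells. In these leading lineages 1 cell held 59 of the 66 Mmp13 UMIs and 1 cell 28 of the 66 Mmp9 UMIs. These shares mix level with the number and depth of the cells: cancer-like cells held 55.6% of the UMIs of all genes, macrophage-like cells 11.2%, fibroblast-like cells 9.94% and neutrophil-like cells 0.820%. Mmp3, Mmp12, Mmp13 and Mmp9 were thus concentrated in cells that held a small part of the RNA. The shares depended on the settings: with the upper limit of 10000 UMIs per cell that the study used, the cancer-like share fell to 31.8% for Plau, 17.6% for Timp1 and 9.55% for Timp2, and the neutrophil-like share of Mmp9 was 59.0%. With more marker UMIs asked of each cell, the macrophage-like share of Mmp13 was 38.6%.

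**Figure D1:**
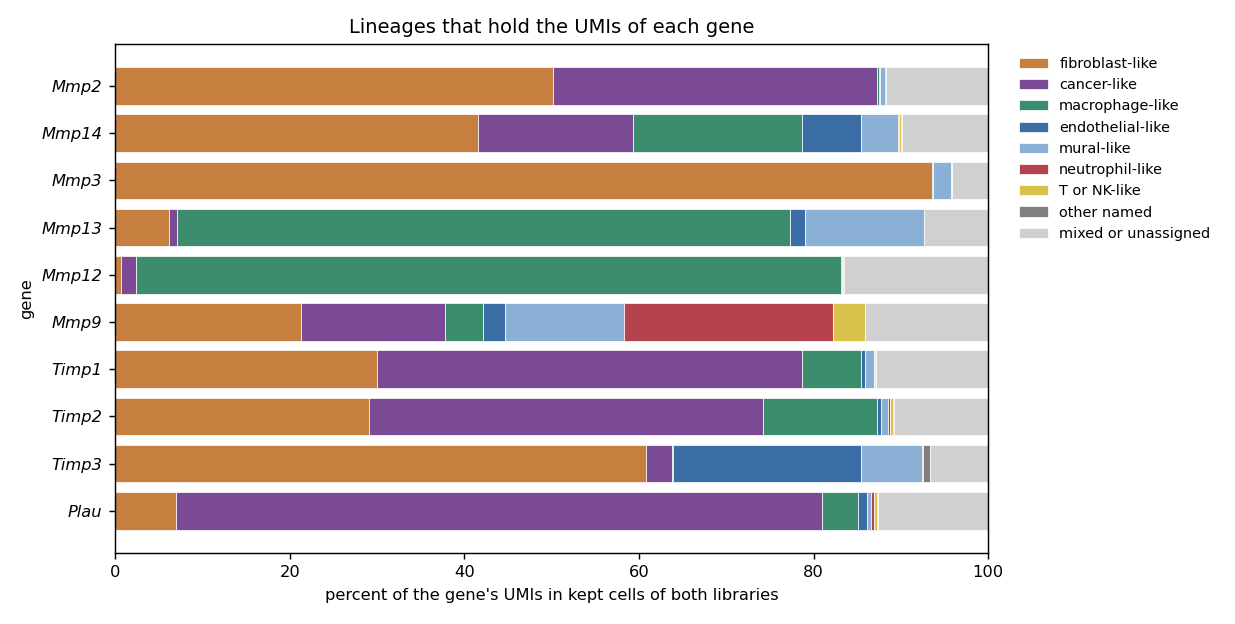
Percent of each gene's UMIs (x axis) held by each lineage (colours), over the kept cells of both libraries, 1 bar per gene. Mmp3 was 93.5% fibroblast-like, Mmp12 80.8% macrophage-like and Plau 74.0% cancer-like, while the 551 UMIs of Mmp9 were spread over several lineages, with 132 in neutrophil-like cells.

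Levels per lineage, as CPM, set out the same genes without the weight of cell numbers. Genes are compared here across lineages and libraries and not with each other, since counts of 3′ ends of different genes are not calibrated to each other. T or NK-like cells were taken as a gauge of RNA that leaks between cells: the 10 genes were between 0 and 8.71 CPM there in WT and between 0 and 23.5 CPM in TSK, at median depths of 6703 and 2844.5 UMIs. A level near the same gene's level in T or NK-like cells is not read as expression.

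**Figure D2:**
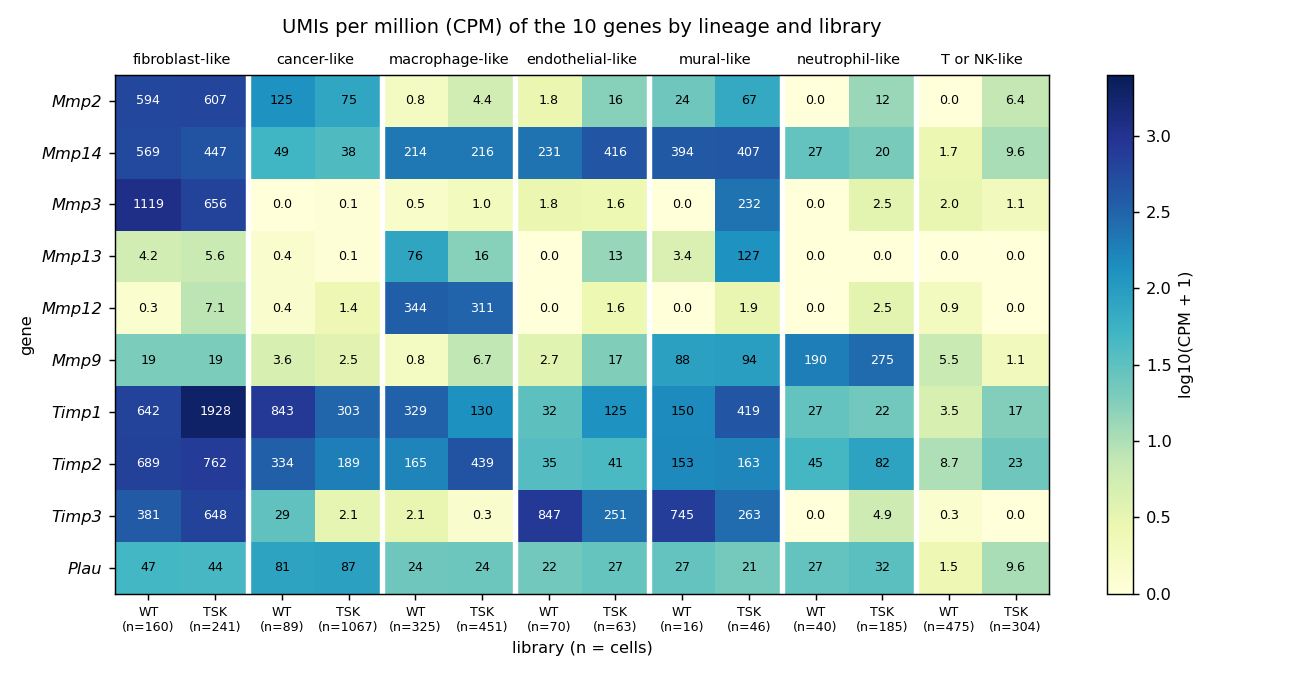
CPM of each gene (rows) in each lineage, in the WT and TSK library (columns, with the number of cells); colour is log10(CPM + 1). Mmp3 reached 1119 CPM in WT fibroblast-like cells and at most 2.03 CPM in any other WT lineage, and Timp1 reached its highest level, 1928 CPM, in TSK fibroblast-like cells.

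Mmp2, gelatinase A, which cuts denatured collagen and basement membrane collagen, was at 594 CPM in WT and 607 CPM in TSK fibroblast-like cells. The ratio of TSK to WT on the log2 scale (log2 TSK/WT) was 0.03 (interval -0.06 to 0.12), and the share of fibroblast-like cells with an Mmp2 UMI was alike as well, 83.1% in WT and 83.4% in TSK. Thinned to 1000 UMIs per cell, these shares were 40.3% and 39.4%. Cancer-like cells came next, with 125 CPM in WT and 75.2 CPM in TSK (log2 TSK/WT -0.74, interval -0.90 to -0.57). Mmp2 was therefore close to level between the libraries in fibroblast-like cells, where it was most abundant per UMI, and lower in TSK in the cancer-like cells. T or NK-like cells held 0 Mmp2 UMIs in WT and 6 in TSK.

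Mmp14, the membrane-anchored collagenase MT1-MMP, was the most widely shared protease. In WT it was at 569 CPM in fibroblast-like, 394 CPM in mural-like, 231 CPM in endothelial-like, 214 CPM in macrophage-like and 49.2 CPM in cancer-like cells. In TSK the order was fibroblast-like 447 CPM, endothelial-like 416 CPM, mural-like 407 CPM, macrophage-like 216 CPM and cancer-like 38.5 CPM, and the intervals of the first 3 overlapped. Endothelial-like cells were higher in TSK (log2 TSK/WT 0.85, interval 0.59 to 1.10), macrophage-like cells hardly differed (0.02, interval -0.13 to 0.16), and fibroblast-like cells were lower (-0.35, interval -0.45 to -0.25). The direction in fibroblast-like cells was not stable: with the upper limit of 10000 UMIs per cell that the study used, the log2 ratio was 0.49.

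Mmp3, stromelysin-1, which cuts proteoglycans and several matrix glycoproteins and activates other pro-MMPs, was at 1119 CPM in WT and 656 CPM in TSK fibroblast-like cells (log2 TSK/WT -0.77, interval -0.85 to -0.69). An Mmp3 UMI was found in 68.1% of WT and 48.1% of TSK fibroblast-like cells, whose median depths were 21902.5 and 10457 UMIs. At 1000 UMIs per cell the shares were 36.9% and 26.0%, so fewer TSK cells held Mmp3 at equal depth too. Among the cells with a UMI, the median level was 604 CPM in WT and 725 CPM in TSK, while the upper quartile was 1799 and 1236 CPM. A single UMI is a higher CPM in a shallower cell, so medians over cells with a UMI also depend on depth. Mmp3 UMIs sat in a minority of cells, with 11 of 160 WT and 13 of 241 TSK fibroblast-like cells holding 50% of them. In T or NK-like cells 1.47% (WT) and 0.329% (TSK) had an Mmp3 UMI. Mural-like cells had 0 UMIs in WT and 121 in TSK, at least 22.8-fold higher when the WT library is set to a floor of 3 counts, but 117 of the 121 were in 1 cell.

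Mmp12, macrophage elastase, was at 344 CPM in WT and 311 CPM in TSK macrophage-like cells, and at no more than 7.06 CPM in any other of the 7 lineages. The log2 ratio was -0.15 (-0.27 to -0.03). That direction turned when the single cell with the most Mmp12 in each library was left out (0.02), since 3 of the 325 WT cells and 6 of the 451 TSK cells held 50% of the UMIs. An Mmp12 UMI was found in 9.85% of WT and 13.7% of TSK macrophage-like cells (5.68% and 7.67% at 1000 UMIs), against 0.632% and 0% of T or NK-like cells. Mmp12 was thus a gene of few macrophage-like cells in both libraries.

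Mmp13, collagenase-3, which cuts fibrillar collagen, was at 75.9 CPM in WT and 16.2 CPM in TSK macrophage-like cells (log2 TSK/WT -2.23, interval -2.69 to -1.80). The number of cells behind this was small, 13 of 325 in WT and 20 of 451 in TSK, and 1 WT cell held 155 of the 293 UMIs. Without the top cell of each library the log2 ratio was -1.86, and with the upper limit of 10000 UMIs per cell -1.30. The share of macrophage-like cells with a UMI was close, while the median level in those cells was 703 CPM in WT and 147 CPM in TSK. T or NK-like cells held 0 Mmp13 UMIs in both libraries. In mural-like cells 1 UMI in WT stood against 66 in TSK (log2 TSK/WT 5.22, interval 2.69 to 10.55), and 59 of the 66 came from 1 cell.

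Mmp9, gelatinase B, which neutrophils store in their granules, was highest in neutrophil-like cells, at 190 CPM in WT and 275 CPM in TSK. The log2 ratio, 0.53, had an interval from -0.15 to 1.28 that holds 0, so no difference was detectable at this depth (21 and 111 UMIs). Mmp9 was found in 10 of 40 WT and 58 of 185 TSK neutrophil-like cells, whose median depths were 2936 and 1979 UMIs, and in 17.9% and 18.9% at 1000 UMIs. Mural-like cells followed with 88.4 and 94.2 CPM and fibroblast-like cells with 18.6 and 19.0 CPM, and neither differed beyond counting error. These levels rested on few cells. The top cell held 18 of 26 (WT) and 23 of 49 (TSK) mural-like UMIs, and 28 of 66 and 16 of 51 fibroblast-like UMIs. In macrophage-like cells the 3 WT and 21 TSK UMIs give a log2 ratio of 3.10 (1.36 to 5.49), with 17 of the 21 in 1 cell.

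Plau had its highest level in cancer-like cells, 81.2 CPM in WT and 86.9 CPM in TSK (log2 TSK/WT 0.10, interval -0.10 to 0.30). Fibroblast-like cells had 46.8 and 43.9 CPM and macrophage-like cells 23.6 and 24.4 CPM, with log2 ratios of -0.09 (-0.45 to 0.25) and 0.05 (-0.41 to 0.50). In every lineage where Plau had at least 20 UMIs the interval of the ratio held 0. The small difference in cancer-like cells depended on the settings. It lay between -0.43, when the barcodes found in both libraries were kept, and 1.03 over the 8 alternatives. In endothelial-like cells the log2 ratio lay between 0.05 and 1.12 over the alternatives. In the whole libraries Plau was nevertheless at 38.0 CPM in WT (35.1 to 41.0) and 75.0 CPM in TSK (72.5 to 77.6), next to the cancer-like share of all UMIs of 16.3% and 70.2%.

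Timp1, the inducible secreted inhibitor, showed the opposite arrangement. Over all kept cells its level was nearly the same, 409 CPM in WT (399 to 418) and 391 CPM in TSK (386 to 397), yet within lineages it differed in both directions. Fibroblast-like cells were at 642 CPM in WT and 1928 CPM in TSK, log2 TSK/WT 1.59, interval 1.52 to 1.66. Mural-like cells were at 150 and 419 CPM (log2 TSK/WT 1.49, interval 1.01 to 1.99), and endothelial-like cells at 31.6 and 125 CPM (log2 TSK/WT 1.99, interval 1.40 to 2.61). In cancer-like cells Timp1 was at 843 CPM in WT and 303 CPM in TSK (log2 TSK/WT -1.48, interval -1.54 to -1.41). Macrophage-like cells were also lower in TSK, at 329 and 130 CPM (log2 TSK/WT -1.34, interval -1.51 to -1.18). The lineage with the most Timp1 per UMI was thus cancer-like in WT and fibroblast-like in TSK.

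Timp1 was spread over most fibroblast-like cells and very unequal among them. A UMI was found in 75.6% of WT and 82.2% of TSK cells (32.9% and 49.4% at 1000 UMIs), against 2.53% and 4.93% of T or NK-like cells. The median level among fibroblast-like cells with a UMI was 294 CPM in WT and 729 CPM in TSK. In TSK, 11 cells held 50% of the 5188 UMIs and 1 cell held 668. Without the top cell of each library the log2 ratio was 1.56, and over the 8 alternative settings it lay between 1.35 and 1.97. Markers of cancer-like cells, which are themselves rich in Timp1, were more abundant in the other TSK lineages: their summed level went from 21.7 CPM in WT to 66.9 CPM in TSK in fibroblast-like cells, from 8.14 to 110 CPM in endothelial-like cells, from 6.80 to 69.2 CPM in mural-like cells and from 11.0 to 108 CPM in T or NK-like cells. It also went from 9.33 to 53.6 CPM in macrophage-like cells, where Timp1 was lower in TSK, and from 9.06 to 124 CPM in neutrophil-like cells. Markers of fibroblast-like cells, the lineage with the most Timp1 per UMI in TSK, were set out in the same way. Their summed level rose from 325 to 578 CPM in endothelial-like, 90.6 to 131 in neutrophil-like and 52.5 to 75.8 in T or NK-like cells. It fell from 7578 to 5770 CPM in mural-like, 400 to 367 in cancer-like and 50.5 to 44.7 in macrophage-like cells. The part of RNA carried over from either lineage in the Timp1 differences was not tested. In T or NK-like cells Timp1 itself was at 3.48 CPM in WT (12 UMIs) and 17.1 CPM in TSK (16 UMIs) (log2 TSK/WT 2.29, interval 1.12 to 3.51) between levels treated here as background.

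**Figure D3:**
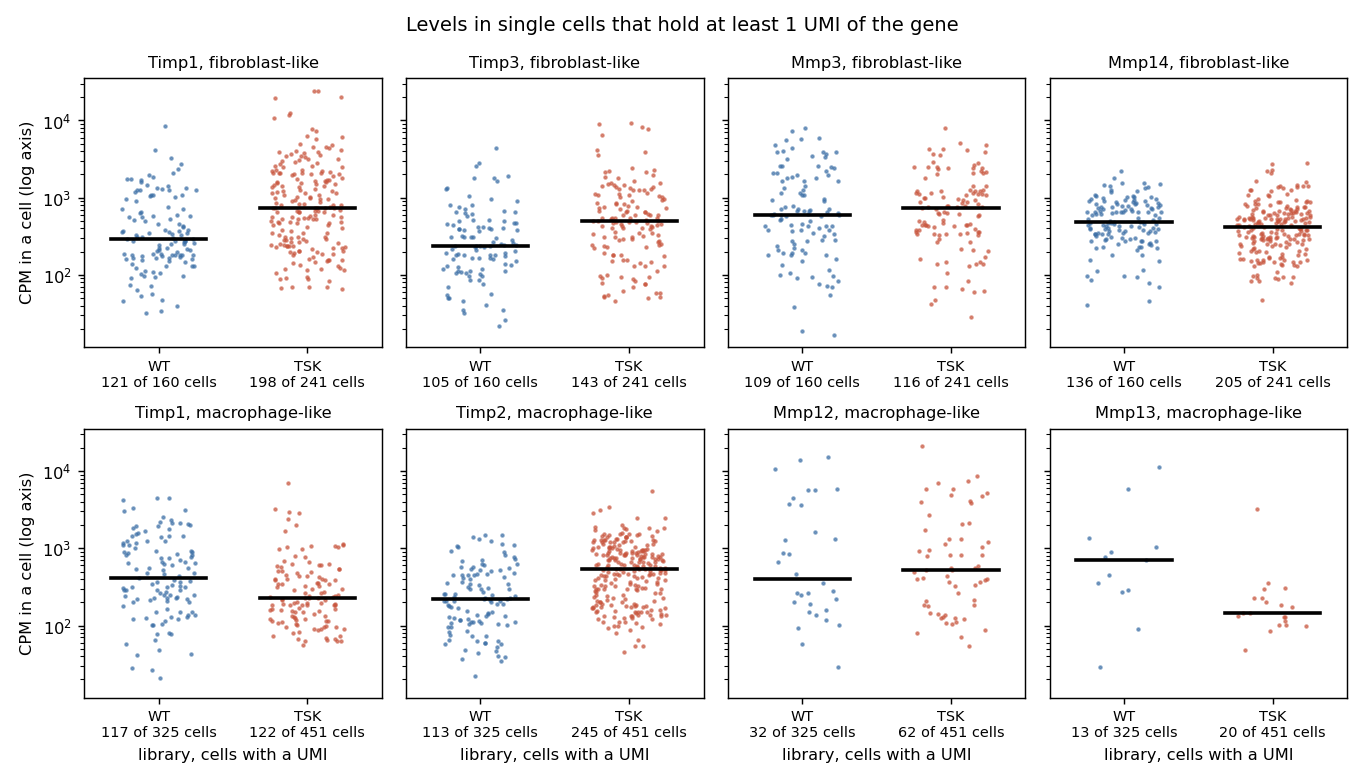
CPM of 4 genes in fibroblast-like cells (top) and 4 genes in macrophage-like cells (bottom), 1 point per cell with at least 1 UMI, on a log axis, with the number of such cells under each library; black lines are medians. The median of Timp1 in fibroblast-like cells was 294 CPM in WT and 729 CPM in TSK, and Mmp12 and Mmp13 rested on 32 and 62 cells and on 13 and 20 cells.

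Timp2, the constitutive inhibitor that also takes part in pro-Mmp2 activation, was at 689 CPM in WT and 762 CPM in TSK fibroblast-like cells (log2 TSK/WT 0.14, interval 0.06 to 0.23). The median log2 ratio of all genes tested in these cells was 0.24, and when that shift was removed the direction turned (-0.10). In macrophage-like cells Timp2 was at 165 CPM in WT and 439 CPM in TSK (log2 TSK/WT 1.41, interval 1.28 to 1.55). A Timp2 UMI was found in 34.8% of WT and 54.3% of TSK macrophage-like cells at median depths of 10137 and 6362 UMIs, and in 10.1% and 29.3% at 1000 UMIs, against 5.05% and 6.25% of T or NK-like cells. Cancer-like cells were lower in TSK, 334 and 189 CPM (log2 TSK/WT -0.82, interval -0.92 to -0.72). Of the TIMP UMIs in macrophage-like cells, Timp1 made up 66.3% in WT and 22.8% in TSK, and Timp2 33.2% and 77.2%. The part of Timp1 was thus smaller in TSK and that of Timp2 larger.

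Timp3, the inhibitor that binds to the matrix and also blocks several ADAM enzymes, was a gene of vessels and fibroblasts. In WT it was highest in endothelial-like cells (847 CPM, 794 to 903) and mural-like cells (745 CPM, 649 to 850), whose intervals overlap, followed by fibroblast-like cells (381 CPM). In TSK fibroblast-like cells led with 648 CPM, ahead of mural-like cells (263 CPM) and endothelial-like cells (251 CPM), whose intervals again overlap. The log2 ratios were 0.77 (0.66 to 0.87) in fibroblast-like, -1.76 (-2.01 to -1.51) in endothelial-like and -1.50 (-1.82 to -1.19) in mural-like cells. A Timp3 UMI was found in 80.0% of WT and 57.1% of TSK endothelial-like cells (37.7% and 20.7% at 1000 UMIs), and in 0.211% and 0% of T or NK-like cells. In cancer-like cells Timp3 was at 29.5 CPM in WT and 2.12 CPM in TSK (log2 TSK/WT -3.80, interval -4.28 to -3.31), carried by 10 of 89 and 27 of 1067 cells. With the upper limit of 10000 UMIs per cell the ratio in fibroblast-like cells was 1.40.

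To compare the 10 genes with all others, a gene was called in a lineage when TSK and WT differed at least 2-fold and the gene had at least 20 UMIs there over both libraries. Of the 43 pairs of a member and a lineage that could be compared, 12 were called higher and 7 lower in TSK, beside 10.6% higher and 6.42% lower over the 61358 pairs of all genes. The 12 became 7 with a minimum of 50 UMIs. Fewer pairs could be compared at that minimum, and the share over all genes there is not given for all lineages together. In fibroblast-like cells Timp1 and Mmp12 (1 and 19 UMIs) were called higher and none of the 10 tested lower, with backgrounds of 6.95% and 4.15%. In cancer-like cells Mmp12 (1 and 46 UMIs) was called higher and Timp1 and Timp3 lower, of 8 tested, with backgrounds of 12.5% and 10.3%. In macrophage-like cells Timp2 and Mmp9 were called higher and Timp1 and Mmp13 lower, of 7 tested, with backgrounds of 7.26% and 3.24%.

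In endothelial-like cells Timp1 was called higher and Timp3 lower, of 5 tested, with backgrounds of 16.3% and 6.75%. In mural-like cells Mmp2, Mmp3, Mmp13 and Timp1 were called higher and Timp3 lower, of 8 tested, with backgrounds of 13.5% and 8.09%. Neither of the 2 members tested in neutrophil-like cells was called, with backgrounds of 21.1% and 12%. In T or NK-like cells Timp1 and Timp2 were called higher and Mmp9 lower, of 3 tested, with backgrounds of 5.81% and 3.52%. The median log2 ratio of the tested members was 0.09 in fibroblast-like, -0.62 in cancer-like and 0.02 in macrophage-like cells, beside medians over all genes of 0.24, 0.15 and 0.20. At the main settings Timp1 was called in 6 of the 7 lineages, 4 higher and 2 lower, and Plau in none. The called pairs of Mmp12, Mmp3 and Mmp13 outside macrophage-like cells, and of Mmp9 in macrophage-like cells, rested on few UMIs or on 1 cell. The 3 called pairs in T or NK-like cells lay at levels treated here as background, and that of Mmp9 rested on 19 UMIs in WT and 1 in TSK, with an interval (-7.75 to 0.28) that holds 0, as does that of Mmp12 in cancer-like cells.

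**Figure D4:**
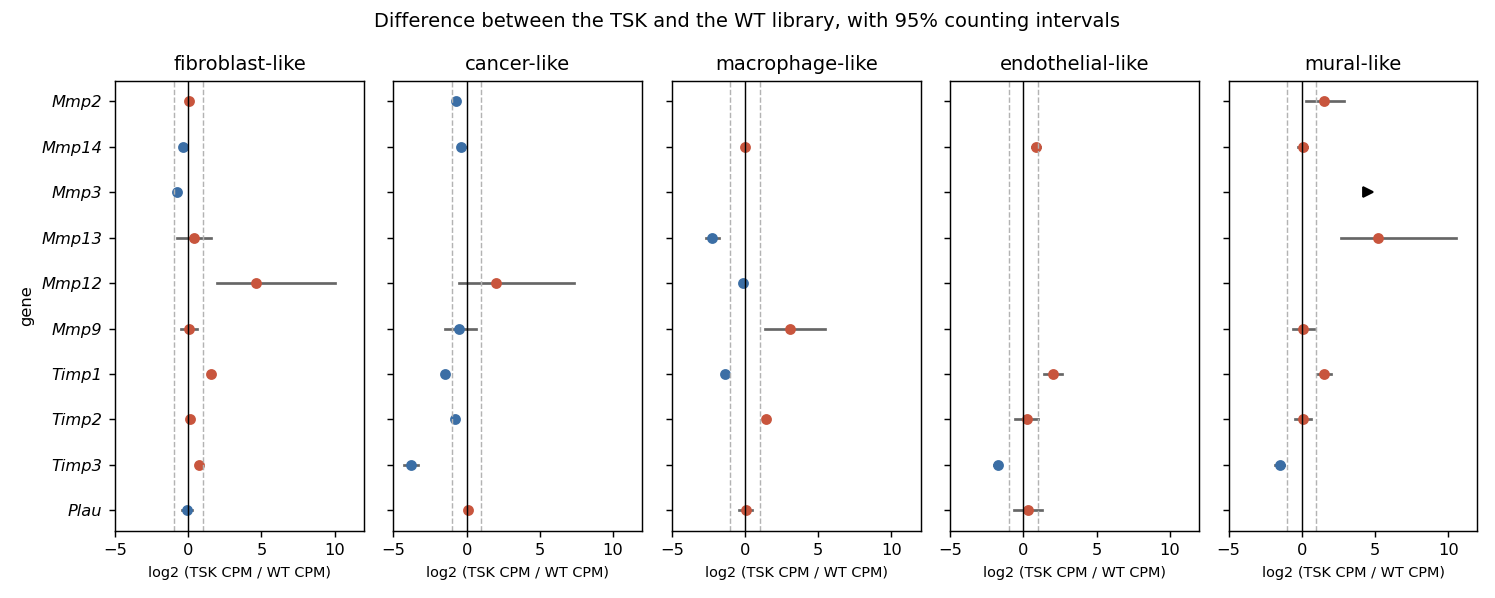
Log2 ratio of TSK over WT CPM (x axis) for each gene with at least 20 UMIs in the lineage, with 95% counting intervals; dashed lines mark 2-fold, red points lie above 0 and blue points below, and the triangle marks the lower bound for Mmp3 in mural-like cells. Timp1 lies at 1.59 in fibroblast-like cells and at -1.48 and -1.34 in cancer-like and macrophage-like cells.

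The balance of protease to inhibitor RNA was taken as the UMIs of the 6 metalloproteases per UMI of the 3 TIMPs. Counts of different genes are not calibrated to each other, so a balance is compared between libraries and lineages only. Its value is not read as an excess of protease or of inhibitor. Fibroblast-like cells had 1.35 metalloprotease UMIs per TIMP UMI in WT (1.30 to 1.39) and 0.522 in TSK (0.504 to 0.541), a log2 difference of -1.37 (-1.44 to -1.30). Timp1 made up 37.5% of their TIMP UMIs in WT and 57.8% in TSK, and Mmp3 48.5% and 37.7% of their metalloprotease UMIs. The balance of fibroblast-like cells is given at the main settings only. It is not given within their subsets, described below, where Mmp3 and Timp3 each differed in opposite directions. Macrophage-like cells went from 1.28 in WT to 0.975 in TSK, a log2 difference of -0.40 (-0.53 to -0.27). The vessel cells lay the other way. Endothelial-like cells were at 0.260 and 1.11, a log2 difference of 2.10 (1.78 to 2.42). Mural-like cells were at 0.487 and 1.10, a log2 difference of 1.18 (0.83 to 1.52). Of the 484 metalloprotease UMIs in TSK mural-like cells, the top cell for Mmp3 held 117 and the top cell for Mmp13 held 59. The mural-like balance without such cells was not computed. Cancer-like cells had the lowest balance in both libraries, 0.148 in WT and 0.239 in TSK, a log2 difference of 0.69 (0.54 to 0.83). Over all kept cells the balance was 0.866 and 0.412, a log2 difference of -1.07 (-1.12 to -1.02) that also carries the larger number of cancer-like cells in TSK, and with the study's upper limit of 10000 UMIs per cell it was -0.39.

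**Figure D5:**
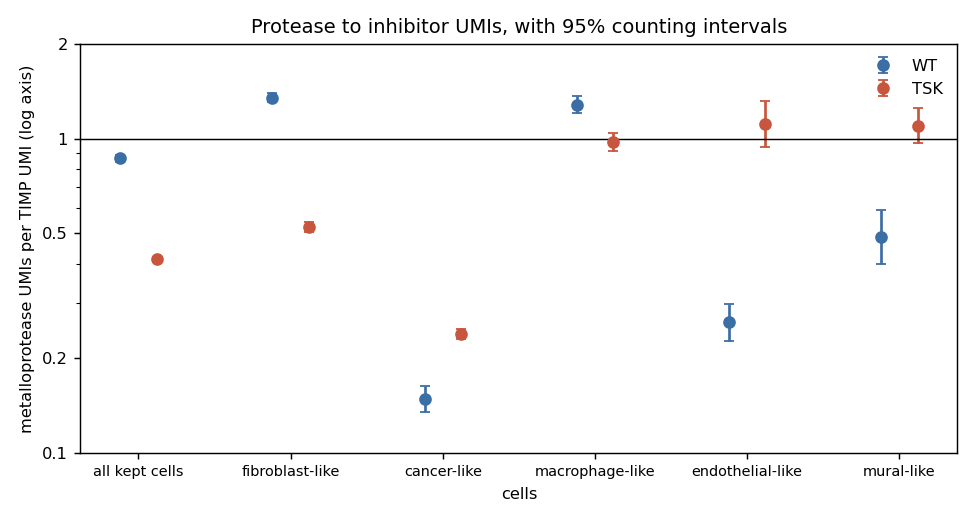
UMIs of 6 metalloproteases per UMI of 3 TIMPs (y axis, log scale) in each lineage and over all kept cells, WT in blue and TSK in red, with 95% counting intervals. TSK was below WT in fibroblast-like (0.522 and 1.35) and macrophage-like cells, and above it in cancer-like, endothelial-like (1.11 and 0.260) and mural-like cells. Of the 484 metalloprotease UMIs in TSK mural-like cells, the top cell for Mmp3 held 117 and the top cell for Mmp13 held 59.

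Subsets of cells, split by the presence of a UMI of fixed marker genes, showed where within a lineage the differences lay. Among fibroblast-like cells with Clec3b, Pi16 or Cd34, genes of the resting, adventitial type of fibroblast (134 WT and 179 TSK cells), Mmp3 was at 1254 CPM in WT and 687 CPM in TSK (log2 TSK/WT -0.87, interval -0.96 to -0.78), Timp1 at 661 and 1716 CPM (log2 TSK/WT 1.38, interval 1.30 to 1.45), and Timp3 at 290 and 600 CPM (log2 TSK/WT 1.05, interval 0.92 to 1.17). In the remaining 26 WT and 62 TSK cells Mmp3 was at 15.5 CPM in WT (6 UMIs) and 565 CPM in TSK (log2 TSK/WT 5.19, interval 4.05 to 6.64), opposite to the first subset. Timp1 was higher in TSK there as well (484 and 2567 CPM, log2 ratio 2.41), while Timp3 was lower (1120 and 790 CPM, log2 ratio -0.50). In WT, Mmp3 UMIs were thus nearly confined to the fibroblast-like cells where these markers were detected, and in TSK they were present in both subsets. Median depths were 23982 UMIs with the markers and 4279 without in WT, and 10986 and 7116.5 in TSK. The split therefore also follows depth, and the WT side without the markers is 26 shallow cells. Among all TSK fibroblast-like cells, 1 cell held 172 of the 1766 Mmp3 UMIs, so few cells can set the TSK level as well. The Mmp3 ratios of these subsets without the top cells were not computed. Fibroblast-like cells with a UMI of Mki67 or Top2a, genes of dividing cells (16 and 56), had a smaller Timp1 difference than those without. Timp1 was at 948 and 1145 CPM with one (log2 ratio 0.27, 0.11 to 0.43) and at 586 and 2230 CPM without (log2 ratio 1.93, 1.85 to 2.01). Median depths were 37557 and 10542.5 UMIs with one, and 21436.5 and 10381 without. The 16 WT cells held 522 Timp1 UMIs, so few cells can set their level.

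Among macrophage-like cells, those with a UMI of Arg1, the arginase of alternatively activated macrophages (182 WT and 284 TSK), held nearly all Mmp12 and Timp1. Mmp12 was at 521 and 429 CPM with Arg1 and at 19.1 and 27.0 CPM without it, and Timp1 at 503 and 175 CPM with Arg1 and at 8.82 and 20.5 CPM without it. The lower Timp1 in TSK was found in the cells with Arg1 (log2 TSK/WT -1.52, interval -1.69 to -1.36). Timp2 did not follow Arg1, at 169 and 420 CPM with it and 157 and 485 CPM without it, and was higher in TSK in both. Timp2 was instead higher in cells with Folr2, Lyve1 or Cd163, genes of resident macrophages (52 WT and 163 TSK): 451 CPM in WT and 721 CPM in TSK, against 68.9 and 162 CPM in the cells without them. In these resident-type cells Mmp12 was higher in TSK, 75.3 and 317 CPM with a log2 ratio of 2.08 (1.72 to 2.45). In the rest Mmp12 was lower, 434 and 305 CPM with a log2 ratio of -0.51 (-0.66 to -0.36). Among all macrophage-like cells, the top cell held 301 of the 1327 Mmp12 UMIs in WT and 126 of the 980 in TSK. Resident-type cells held 73 Mmp12 UMIs in WT and 496 in TSK, so the side on which few cells fall can set both ratios. The Mmp12 ratios of these subsets without the top cells were not computed. A split by 1 UMI depends on depth, so these subsets are not cell types of their own. In cancer-like cells Timp1 was lower in TSK with a UMI of Mki67 or Top2a (859 and 298 CPM) and without one (813 and 357 CPM).

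RNA of the parts of the pro-Mmp2 activation complex was often found in the same fibroblast-like cell. Mmp2, Mmp14 and Timp2 were all present in 79.4% of WT (72.3 to 85.4) and 72.6% of TSK fibroblast-like cells (66.5 to 78.1), and in 34.8% and 32.1% of cancer-like cells. At 1000 UMIs per cell the shares were 11.4% and 8.23% in fibroblast-like cells, and 0% and 0.0951% in cancer-like cells. The shares in cancer-like cells at full depth thus rest on their depth, a median of 30930 and 28447 UMIs. Mmp14 and Timp2 were found together in 22.8% of WT and 29.9% of TSK macrophage-like cells (2.84% and 5.28% at 1000 UMIs). Mmp12 and Mmp13, both led by macrophage-like cells over the pooled libraries, were found together in 6 WT and 12 TSK cells of that lineage.

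A list of 45 other genes of matrix breakdown was described in the same way, counting those with at least 50 UMIs in a lineage. In fibroblast-like cells 2 of 33 were at least 2-fold higher in TSK and 1 lower, beside 4.50% and 2.77% of all genes. Mmp10, stromelysin-2 and a neighbour of Mmp3 on chromosome 9, was at 3.38 CPM in WT and 90.7 CPM in TSK (log2 TSK/WT 4.74, interval 3.91 to 5.72), on 12 and 244 UMIs. How the UMIs of Mmp10 spread over cells was not examined in any lineage. The aggrecanase Adamts4 was the other higher one, at 37.2 and 89.2 CPM, and the membrane protease Mmp25 was the lower one (log2 TSK/WT -1.50, interval -2.32 to -0.76). In cancer-like cells none of 30 was higher and 5 were lower, namely Mmp11, Mmp15, Ctss, Htra1 and Htra3, beside 10.2% and 7.76% of all genes. In macrophage-like cells the cathepsins Ctsd (635 and 1666 CPM, log2 ratio 1.39) and Ctsk were higher and the collagenase Mmp8 (13.7 and 4.44 CPM) was lower, of 20, beside 4.71% and 1.91% of all genes.

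The vessel and blood cells added further members of the list. In endothelial-like cells 5 of 22 were higher and 1 lower, beside 13.1% and 5.49% of all genes. The higher ones were Plat, the tissue plasminogen activator (29.8 and 132 CPM, log2 ratio 2.14, 1.55 to 2.77), its inhibitor Serpine2, Adam12, Adamts2 and Bsg, and the lower one was Ctss. In mural-like cells 3 of 19 were higher, Mmp10 (3 UMIs in WT and 149 in TSK) and Bsg among them, and none was lower, beside 11.0% and 6.21% of all genes. In neutrophil-like cells Mmp8, the collagenase of neutrophil granules, was at 9.06 CPM in WT (1 UMI) and 166 CPM in TSK (67 UMIs) (log2 TSK/WT 4.19, interval 1.67 to 9.52), Ctsl and Bsg were higher as well, and Adam17 was lower, of 11, beside 17.0% and 11.6% of all genes. In T or NK-like cells 1 of 12, Ctsl, was higher and none lower, beside 2.52% and 1.68% of all genes. Plaur, the urokinase receptor, was most abundant in neutrophil-like cells among the 5 lineages where it had at least 50 UMIs, at 1088 CPM in WT and 861 CPM in TSK, followed by macrophage-like cells at 250 and 203 CPM, endothelial-like cells at 91.3 and 106 CPM, cancer-like cells at 77.6 and 80.0 CPM and fibroblast-like cells at 39.8 and 43.5 CPM.

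Over the 13 groups of a lineage and a library with at least 20 cells, the genes closest in pattern to each member were found by Pearson's r of log2(CPM + 10), as a description across groups that share their library and depth. Mmp3 was closest to Cdh11, a cadherin of mesenchymal cells (r = 0.995), and Mmp2 to Tpbg (0.98) and Serpinf1 (0.98). Mmp12 was closest to Tifab (0.99), Gm10134 (0.99) and the macrophage lectin Clec10a (0.99). Timp3 was closest to Adamts1 (0.98) and to Syn3 (0.98), the gene in whose locus it lies and with which its exons overlap on the opposite strand. Timp1 was closest to Rassf8 (0.93) and Axl (0.93), Timp2 to Rnf150 (0.94), Mmp14 to Dusp23 (0.96), Plau to Cask (0.94), Mmp9 to Leng9 (0.94) and Mmp13 to Akap6 (0.88). Among the members themselves the highest values were 0.88 for Timp1 with Timp2 and 0.82 for Mmp2 with Timp1.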

How the data were processed

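Cells of subcutaneous SO tumors were captured with the 10x Genomics 3′ chemistry, 1 library per genotype. For each library the authors deposited a matrix of raw counts, in UMIs for each gene in each barcode, with no normalization. The file headers name Cell Ranger 7.1.0, whereas the submitters' processing notes name Cell Ranger 7.1.1 and mm10. The libraries held 2332 (WT) and 4436 (TSK) barcodes with 21225411 and 48296765 UMIs.

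Cells with at least 200 genes, at least 500 UMIs and at most 10% mitochondrial UMIs were kept, and the 263 barcodes found in both libraries were removed, leaving 61.8% and 66.7% of the barcodes. No upper limit was set. The study's limit of 10000 would remove 522 WT and 1260 TSK of these cells. No doublet caller was run. A lineage was given to cells with UMIs of at least 2 of its marker genes and a minimum of marker UMIs per 10000, from 5 (cancer, mural) to 20 (fibroblast, neutrophil) in the main lineages, set after the marker levels were seen. Cells over several stromal minimums took the highest, other cells with several lineages were set aside as mixed (56 and 189), and cells with none as unassigned (184 and 374).

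UMIs were summed per lineage and library and divided by the lineage's UMIs (CPM). Intervals are exact at 95% (Poisson for levels, binomial for shares, conditional for ratios), cover counting error only and leave out the spread between mice. A sum of UMIs weights cells by their depth. For shares at equal depth, cells were thinned to 1000 UMIs and shallower cells left out. The ratio code was run on simulated Poisson counts, and the lineage rule on made-up cells holding markers of a single lineage. These runs check the code only, since they hold neither the spread between cells nor the foreign markers of the real data. All 10 members are reported, genes of the matrix list with values where at least 2-fold apart with at least 50 UMIs, and the 3 genes most alike in pattern were found for each member. The members and lists were chosen with earlier results of these data known. Values were computed in Python 3.11.15 with scipy 1.17.1, numpy 2.4.6 and pandas 2.3.3, and plots drawn with matplotlib 3.10.9. Alternatives were the upper limits, the shared barcodes kept, a limit of 5% mitochondrial UMIs, stricter lineages, scaling by the median gene ratio, equal weight per cell, the top cell left out and other minimum counts; a 2-fold margin between stromal lineages was added after the data were seen. The values of 1 gene of the list of other matrix genes are not reported here, although the counts over that list include it.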

Additional observations from a re-analysis of the deposited data

Results flagged for a closer look

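Timp1 differed between the libraries in opposite directions in different lineages. The log2 ratio of TSK over WT was 1.59 in fibroblast-like, 1.99 in endothelial-like, 1.49 in mural-like and 2.29 in T or NK-like cells, and -1.48 in cancer-like and -1.34 in macrophage-like cells. Each interval excluded 0, and the difference between lineages was not tested, since each genotype had 1 library. The value in T or NK-like cells rests on 12 and 16 UMIs.

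Mmp13 was lower in TSK in macrophage-like cells (-2.23) and higher in mural-like cells (5.22), again with no test of the difference. In TSK mural-like cells 59 of the 66 UMIs were in 1 cell, and in WT macrophage-like cells 155 of the 293 UMIs were in 1 cell.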

How the results depend on the processing

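No paired analysis was possible because each genotype had 1 library. Under the study's upper limit of 10000 UMIs and genes per cell, macrophage-like cells led 4 members in place of 2, the log2 balance of metalloprotease to TIMP UMIs over all kept cells was -0.39 in place of -1.07, and the log2 ratio of Mmp14 became 0.49 in fibroblast-like and 1.40 in cancer-like cells. With the shared barcodes kept the balance was -0.93. The number of pairs at least 2-fold higher in TSK was 7 in place of 12 with a 2-fold margin between stromal lineages, and 7 with at least 50 UMIs. Both settings left fewer pairs to compare, and the margin dropped the mural-like cells, which gave 4 of the 12. The shares over all pairs of all genes under these settings are not given, so the lower counts are not read as smaller differences. Mmp12 in macrophage-like cells turned to 0.12 with at most 5% mitochondrial UMIs, 0.034 with equal weight per cell and 0.024 without the top cell. Timp2 in fibroblast-like cells turned to -0.10 with scaling by the median gene ratio, and Mmp14 in cancer-like cells to 0.088 with equal weight per cell. The cause was not tested for these. Of the 42 log2 ratios, 25 had an interval without 0, and 21 of those kept their direction under each of the 8 alternatives that gave a value. Among them, Timp1 lay between 1.35 and 1.97 in fibroblast-like, -2.26 and -1.11 in cancer-like and -1.54 and -1.17 in macrophage-like cells, Timp2 between 1.22 and 2.33 in macrophage-like cells, Timp3 between 0.53 and 1.40 in fibroblast-like and -2.02 and -1.28 in endothelial-like cells, and Mmp13 between -2.43 and -1.30 in macrophage-like cells. The upper limit and the margin left too few mural-like cells for a ratio. The main limits are the single library per genotype, pooled mice, few WT cancer-like and mural-like cells, and RNA that leaks between cells.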
